A study of Mus musculus with 6 samples.

Results

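Sfrp1, Sfrp5, Frzb, Dkk3, Kremen1, Lrp5, Lrp6, Ryk, Ror1 and Ror2 are 10 mouse genes that encode secreted Wnt antagonists and cell surface proteins through which Wnt signals are received. They were taken by name, and assembled transcripts were assigned to a gene by exon overlap, on the same strand or without a strand. These genes make up 10 of the 15417 genes with a measured level. The tissue was the ventral portion of the lumbar spinal cord of C57BL/6 mice at 5 weeks of age, with 3 libraries from wild-type (WT) and 3 from Gde2KO mice. Gde2KO mice lack GDE2, the product of Gdpd5, a membrane enzyme that cuts glycosylphosphatidylinositol anchors and thereby frees proteins from the cell surface. The labels name no allele, no Cre driver and no sex, and nothing in them says how the Gde2KO animals were bred. The series asks, by its title, how GDE2 bears on canonical Wnt signalling in neurons and on the maturation of oligodendrocytes.

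Wnt proteins are secreted lipid-modified ligands that bind Frizzled receptors at the cell surface. In canonical signalling a Wnt joins a Frizzled to Lrp5 or Lrp6, the cytoplasmic complex that destroys beta-catenin is held back, and beta-catenin enters the nucleus to act with TCF/LEF factors. Secreted Frizzled-related proteins bind Wnts outside the cell through a domain like that of the Frizzleds. Some Dickkopf proteins act on Lrp5 and Lrp6, with Kremen proteins as their partners. Ryk, Ror1 and Ror2 are kinase-like receptors that also bind Wnts, Wnt5a among them, and are known for noncanonical signalling and, in the spinal cord, for axon guidance.

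Gdpd5 itself was at 5.38, 6.54 and 5.95 FPKM in WT against 1.24, 1.20 and 0.946 FPKM in Gde2KO, 0.202-fold of WT (95% interval 0.162 to 0.253; limma adjusted p = 0.00568). FPKM, the fragments of a transcript scaled to its length and to the size of the library, is a level per length, so it can be compared between genes. Each library held 31899 to 33791 assembled transcripts. No read totals are given with the values, so depth is unknown here, and an exact test of 3 libraries against 3 cannot give a two-sided p below 0.1. Of 12 cell type marker lists, neuron, oligodendrocyte and astrocyte markers had the highest summed levels, and no defining marker of these was at 0. Some libraries stood apart. WT replicate 1 had the lowest summed neuron markers (2821 FPKM against 3300 to 3597 elsewhere) and oligodendrocyte markers (6306 FPKM against 7327 to 9376). Its motor neuron, oligodendrocyte precursor and ependymal marker sums were the lowest too. Gde2KO replicate 3 had 56.2% of its multi-exon transcripts with an annotated intron chain, against 49.3% to 49.8% elsewhere. Gde2KO replicate 1 had summed meningeal fibroblast markers of 35.5 FPKM against 72.4 to 98.5 elsewhere. Its summed dorsal horn markers were the highest, at 139 FPKM against 78.9 to 101 elsewhere. That library alone held the Y-linked Ddx3y (21.7 FPKM) while Xist was listed at 0 (1.22 to 2.49 FPKM elsewhere), values looked up after earlier results were known.

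The annotated sequences bear on how well neighbours in these families can be told apart by reads. The stretches shown are the longest identical runs between the coding sequences of each related pair in GENCODE vM21, in lower case throughout since every base is shared. The Sfrp1 and Sfrp5 coding sequences share a run of 26 bases (bases 231 to 256 of Sfrp1, 207 to 232 of Sfrp5, counted from the start codon). Ror1 and Ror2 share one of 23 bases and Lrp5 and Lrp6 one of 22. Frzb shares at most 11 with Sfrp1 and 10 with Sfrp5.
Sfrp1 and Sfrp5: gctgcccaacctgctggagcacgaga
Ror1 and Ror2: atcacagctgccttcaccatgat
Lrp5 and Lrp6: tcatgtactggacagactgggg
The labels give no read length, so the share of reads that could fall wholly within such a run was not computed.

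A second set of sequences is shown for Ryk, because its assembled transcripts differed between libraries at one splice site. The annotated transcripts Ryk-201 and Ryk-203 differ at the start of exon 8 on chromosome 9, plus strand, where Ryk-203 begins 9 coding bases earlier (chr9:102885994-102886002, mm10) and so holds 3 more codons. The lines below run from 24 bases before the junction of exons 7 and 8 to 24 bases after it, in the coding part of both transcripts, with the 9 bases in capitals.
Ryk-201: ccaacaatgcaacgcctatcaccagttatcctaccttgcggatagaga
Ryk-203: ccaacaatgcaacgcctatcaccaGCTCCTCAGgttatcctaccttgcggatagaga
The junction recurs further down with the assembled transcripts.

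Dkk3 was the most abundant of the 10 genes and Ror1 the least. Averaged over the 6 libraries, levels ran from 29.0 FPKM for Dkk3 through 10.4 for Ryk, 9.24 for Sfrp5, 7.47 for Sfrp1, 6.11 for Lrp6, 3.24 for Kremen1, 3.23 for Lrp5, 2.90 for Frzb and 1.64 for Ror2 to 0.467 for Ror1. Dkk3 stood above Ryk in every library, with a mean ratio of 2.80. The ranges of 4 neighbouring pairs overlapped: Ryk with Sfrp5, Sfrp5 with Sfrp1, Kremen1 with Lrp5, and Lrp5 with Frzb. Sfrp5 was nevertheless above Sfrp1 in 6 of 6 libraries, while Kremen1 was above Lrp5 in 4 and Lrp5 above Frzb in 5. Spread among libraries, as the SD over the mean, was 4.13% for Lrp6 and slightly less for Lrp5, between 5.77% and 8.80% for Kremen1, Ryk, Dkk3, Sfrp1 and Ror2, 12.3% for Frzb, 20.3% for Sfrp5 and 25.8% for Ror1.

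**Figure D1:**
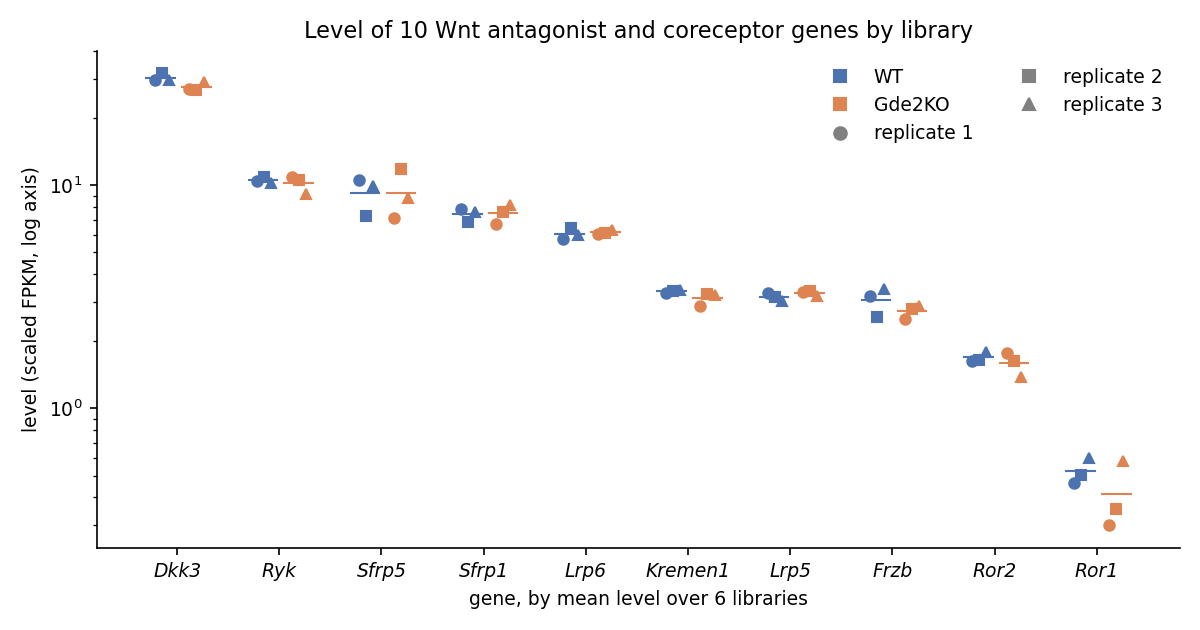
Level of each of the 10 genes in every library, in scaled FPKM on a log axis, with colour for the genotype, symbol for the replicate number and a line at each group mean. Dkk3 lies highest (29.0 FPKM on average) and Ror1 lowest (0.467), and the points of the genotypes overlap for every gene except Dkk3 and Kremen1.

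Between the genotypes no secreted antagonist, coreceptor or receptor of the 10 passed the test. Of the 9 genes tested, 3 were higher and 6 lower in Gde2KO, and without scaling Sfrp1 and Lrp6 turned, which left 1 higher and 8 lower. Of the 9, 0 had a limma adjusted p under 0.05, and 0 had an unadjusted p under 0.05. Over all 12872 genes tested 15 passed (0.117%), 5 of them higher (0.0388%) and 10 lower (0.0777%), and 3.89% had an unadjusted p under 0.05. Lower values in Gde2KO were seen for 49.9% of all genes. Adjusted p values of the 9 genes ran from 0.883 to 0.993, and the median log2 difference was -0.05, against 0.00 over all genes tested. Groups did not overlap for 2 of the 9, Dkk3 and Kremen1, both lower. Over all genes that held for 10.8%, with 5.77% lower and 5.07% higher. In bulk tissue fewer cells of a type and less RNA per cell cannot be told apart, and this holds for each level given.

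Dkk3 encodes a divergent Dickkopf family protein, a secreted glycoprotein of neurons and other cells whose action on Wnt signalling differs between settings. It lies on chromosome 7 (chr7:112116017-112159057, minus strand), 12.65 Mb from Gdpd5, and has 8 exons. Its levels were 29.6, 31.8 and 29.6 FPKM in WT and 27.1, 26.9 and 28.9 FPKM in Gde2KO. All 3 Gde2KO libraries were below all 3 WT libraries. The means were 30.3 ± 1.24 and 27.6 ± 1.13 FPKM (SD, n = 3 each), or 0.911-fold on the log2(FPKM + 0.1) scale (95% interval 0.818 to 1.02; limma adjusted p = 0.883). By unadjusted p, 6.85% of the genes tested had a smaller value than Dkk3. All 8 exons had groups that did not overlap, though the assembly gives each exon the level of its transcript, so they are not separate measurements. Counted as fragments per gene instead, where assembled length is no divisor, the log2 difference of Dkk3 was -0.05. The groups overlapped in that setting. By deposited FPKM and assembled length, before scaling, WT replicate 2 was below all 3 Gde2KO libraries, and WT replicates 1 and 3 were above them.

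The secreted Frizzled-related proteins had levels that crossed between the genotypes. Sfrp1 (chr8:23411502-23449632, plus strand, 3 exons) encodes a Wnt-binding antagonist known from neural progenitors and astrocytes. It was at 7.87, 6.84 and 7.60 FPKM in WT against 6.73, 7.62 and 8.18 FPKM in Gde2KO. The lowest and the highest library both belonged to Gde2KO. The means were 7.44 ± 0.536 and 7.51 ± 0.733 FPKM (SD, n = 3 each), at a fold of 1.01 (0.852 to 1.19; limma adjusted p = 0.987), and without scaling the sign turned (log2 difference -0.02).

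Sfrp5 (chr19:42197971-42202252, minus strand, 3 exons), its close relative, was at 10.6, 7.28 and 9.90 FPKM in WT against 7.11, 11.8 and 8.73 FPKM in Gde2KO. One library of each genotype was low and the groups overlapped over nearly their whole range. Means of 9.25 ± 1.74 and 9.23 ± 2.41 FPKM (SD, n = 3 each) gave a fold of 0.989, and the 95% interval of 0.666 to 1.47 was the widest of the genes tested here (limma adjusted p = 0.993). Levels of Sfrp5 were lowest in Gde2KO replicate 1 and WT replicate 2 and highest in Gde2KO replicate 2. The summed levels of the 4 measured of 5 Schwann cell markers, noticed after the values were seen, were 258, 208 and 340 FPKM in WT and 130, 352 and 279 FPKM in Gde2KO, with no marker at 0. Their lowest 2 libraries and their highest were the same as those of Sfrp5, and their part in the Sfrp5 levels was not tested. Meningeal fibroblast markers were lowest in the same 2 libraries too. Without Gde2KO replicate 1 the log2 difference of Sfrp5 was 0.15.

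Frzb (chr2:80411970-80447625, minus strand, 6 exons) encodes a further secreted Frizzled-related protein, first known from cartilage. Its levels were 3.19, 2.57 and 3.43 FPKM in WT and 2.52, 2.80 and 2.87 FPKM in Gde2KO. WT replicate 2 lay among the Gde2KO libraries. The means were 3.07 ± 0.444 and 2.73 ± 0.187 FPKM (SD, n = 3 each), at a fold of 0.899 (0.724 to 1.12; limma adjusted p = 0.883), and the plain sum of transcripts gave a log2 difference of 0.0014. Its log2 difference of -0.15 was -0.27 without WT replicate 2, -0.069 without WT replicate 3 and -0.098 without Gde2KO replicate 1. The 7 measured of 8 meningeal fibroblast markers summed to 83.5, 72.4 and 98.5 FPKM in WT and to 35.5, 81.1 and 88.0 FPKM in Gde2KO, with none at 0. Frzb was lowest in the same 2 libraries as these markers, Gde2KO replicate 1 and WT replicate 2, and highest in the same one, WT replicate 3, a match seen in the values first and not tested.

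Among the coreceptors, Kremen1 (chr11:5191552-5261558, minus strand, 9 exons) encodes a transmembrane protein that binds some Dickkopf proteins and, with them, removes Lrp6 from the cell surface. It was at 3.30, 3.36 and 3.39 FPKM in WT against 2.88, 3.26 and 3.23 FPKM in Gde2KO. All Gde2KO values lay below all WT values, by a gap narrower than the spread within Gde2KO. Means were 3.35 ± 0.0455 and 3.12 ± 0.213 FPKM (SD, n = 3 each), or 0.932-fold (0.819 to 1.06; limma adjusted p = 0.883). Astrocyte markers, 7 of 7 measured and none at 0, also had groups that did not overlap, at summed levels of 2000 to 2217 FPKM in WT and 1766 to 1981 FPKM in Gde2KO. Of these 7 markers 5 were higher and 2 lower in Gde2KO, with a median log2 difference of 0.08, and the lower sum came with Aldoc, a glycolytic enzyme of astrocytes, at 995 ± 51.9 FPKM in WT and 713 ± 107 FPKM in Gde2KO. The part of astrocyte markers in the Dkk3 and Kremen1 values was not tested.

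Lrp5 and Lrp6, the single-pass coreceptors that pass the canonical Wnt signal on, had near-equal means in both genotypes. Lrp5 (chr19:3584828-3686564, minus strand, 23 exons) was at 3.29, 3.17 and 3.02 FPKM in WT against 3.33, 3.36 and 3.18 FPKM in Gde2KO. Its lowest library was a WT one, and the groups overlapped. The means of Lrp5 were 3.16 ± 0.137 and 3.29 ± 0.0956 FPKM (SD, n = 3 each; fold 1.04, 0.927 to 1.17; limma adjusted p = 0.884). Lrp6 (chr6:134446476-134566965, minus strand, 23 exons) was at 5.74, 6.47 and 6.01 FPKM in WT against 6.05, 6.09 and 6.32 FPKM in Gde2KO. Both the lowest and the highest value of Lrp6 were WT values. Its means were 6.08 ± 0.366 and 6.15 ± 0.146 FPKM (SD, n = 3 each; fold 1.01, 0.902 to 1.14; limma adjusted p = 0.961), and without scaling its log2 difference turned to -0.015. Over exons 15 to 23 of Lrp6, 9 of the 23, every Gde2KO library was above every WT library. Exon 23 was at 5.79, 5.93 and 6.03 FPKM in WT against 6.06, 6.19 and 6.43 FPKM in Gde2KO. The other 14 exons were lower on average in Gde2KO, with overlapping groups and WT replicate 2 highest at 7.76 FPKM. Exon levels follow the assembled transcripts and are not separate measurements, and exons 15 to 22 held the same value within each library. No share of such exons over all genes was computed. Of all genes tested, 5.07% had groups that did not overlap on the higher side. The ratio of Lrp6 to Lrp5 averaged 1.93 ± 0.158 for WT libraries and 1.87 ± 0.0989 for Gde2KO libraries, with overlapping groups.

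The kinase-like Wnt receptors were also without a difference past the test. Ryk (chr9:102834917-102908305, plus strand, 15 exons), whose kinase domain is thought to be inactive and whose outer domain resembles the Wnt inhibitory factor Wif1, was at 10.5, 10.9 and 10.2 FPKM in WT against 10.9, 10.6 and 9.17 FPKM in Gde2KO. Gde2KO replicate 3 was the lowest library and the other 5 lay close together. The means of Ryk were 10.5 ± 0.327 and 10.2 ± 0.909 FPKM (SD, n = 3 each; fold 0.967, 0.840 to 1.11; limma adjusted p = 0.911). Without Gde2KO replicate 3 the log2 difference was 0.027.

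Ror2 (chr13:53109312-53286124, minus strand, 9 exons), a receptor for Wnt5a in planar polarity, was at 1.63, 1.66 and 1.79 FPKM in WT against 1.78, 1.62 and 1.39 FPKM in Gde2KO. Gde2KO replicate 3 was again the lowest, and without it the log2 difference was 0.0059. The means of Ror2 were 1.69 ± 0.0816 and 1.60 ± 0.197 FPKM (SD, n = 3 each; fold 0.942, 0.770 to 1.15; limma adjusted p = 0.888). Ror1 (chr4:100095791-100444765, plus strand, 9 exons), its relative, known mostly from embryonic tissue, was at 0.465, 0.503 and 0.601 FPKM in WT against 0.299, 0.355 and 0.580 FPKM in Gde2KO. Gde2KO replicates 1 and 2 were below every WT library, and replicate 3 lay within the WT range. Its mean was under the minimum of 1 FPKM, so Ror1 was not tested, with means of 0.523 ± 0.0701 and 0.411 ± 0.148 FPKM (SD, n = 3 each). The ratio of Ror2 to Ror1 was 3.26 ± 0.274 in WT and 4.30 ± 1.79 in Gde2KO, and the Gde2KO values of 5.93, 4.58 and 2.39 lay on both sides of WT.

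The intervals say which differences these libraries could have missed. The 95% interval of the log2 difference reached 0.16 to each side for Dkk3 and 0.57 for Sfrp5, with a median of 0.28 over all genes tested. For Lrp5 and Lrp6 the intervals left room for a fold between 0.902 and 1.17, and for Sfrp5 for one between 0.666 and 1.47. These intervals were fitted for all 9 tested genes, and every one of them included no difference.

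**Figure D2:**
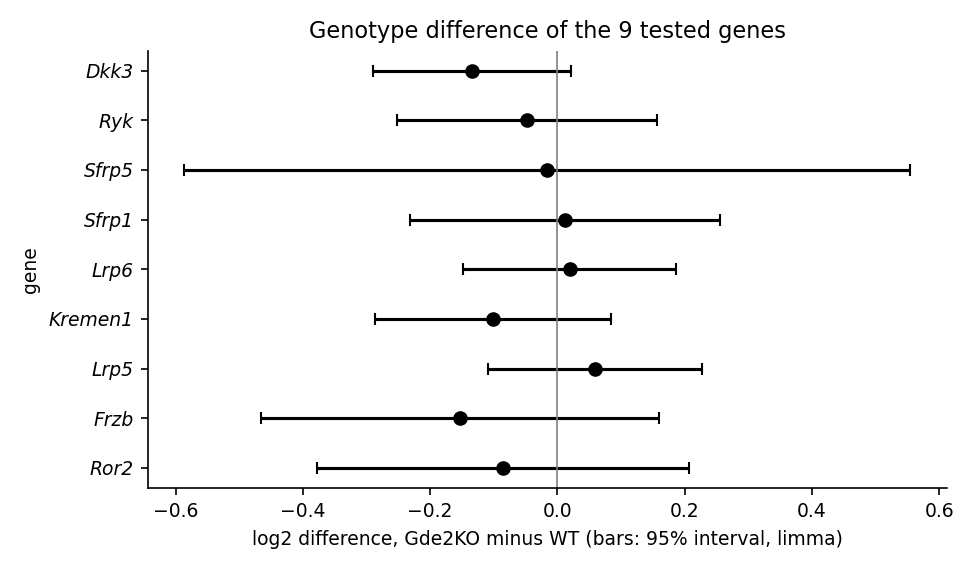
Log2 difference (Gde2KO minus WT) of each of the 9 tested genes, as a point with a bar for its 95% interval from limma. All 9 intervals cross 0, and the widest belongs to Sfrp5 (-0.59 to 0.55).

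The assembled structures of these genes were mostly complete, with Ror1 and Ryk as the exceptions. Over the 6 libraries the 10 genes had 85 assembled transcripts, of which 50 had an annotated intron chain and 5 held a junction that GENCODE vM21 lacks. Over all genes, 49.3% to 56.2% of the multi-exon transcripts of a library had an annotated chain. The 85 are not directly comparable, since they include pieces of 1 exon, which can have no chain. Unannotated junctions were not counted over all genes. Sfrp1, Sfrp5, Frzb, Dkk3 and Kremen1 had a complete annotated chain in 6 of 6 libraries. Lrp5, Lrp6 and Ror2 had one in 5, Ryk in 3 and Ror1 in 1. By library the count of genes with a complete chain was 8, 6 and 9 in WT and 7, 9 and 10 in Gde2KO. Gde2KO replicate 3, where all 10 were complete, is the library that stood apart in its share of annotated chains.

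**Figure D3:**
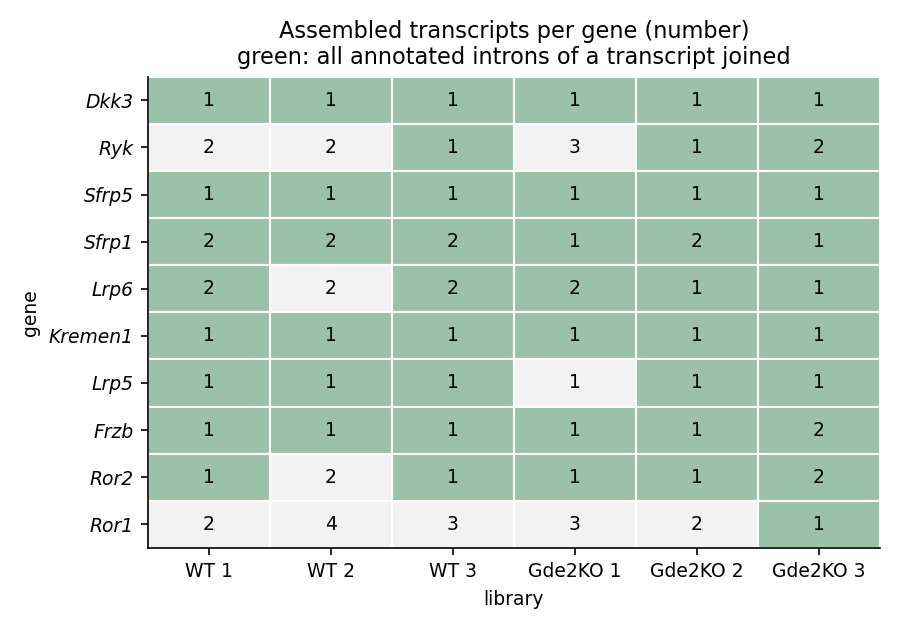
Number of assembled transcripts of each gene (rows) in each library (columns), with cells in green where a transcript held a complete annotated intron chain. The 5 genes Sfrp1, Sfrp5, Frzb, Dkk3 and Kremen1 are complete in all 6 libraries, and Ror1 only in Gde2KO replicate 3.

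Sfrp1 had a second assembled first exon that the annotation lacks. This exon ended at position 23410556 of chromosome 8 in all 4 libraries that held it, began between 23409986 and 23410227, and lay 945 bases before the annotated first exon (chr8:23411502-23412328). It was joined directly to exon 2 at 23417330. A transcript that starts there leaves out the annotated first exon, which holds 544 of the 942 coding bases (57.7%), and so the part of the coding sequence with the start codon. Its level was 2.31, 2.32 and 1.999 FPKM in WT and 0, 1.53 and 0 FPKM in Gde2KO, where 0 means that no such transcript was assembled. It was thus present in 3 of 3 WT and 1 of 3 Gde2KO libraries. It made up 27.8%, 31.7% and 25.1% of the Sfrp1 transcript level in WT and 19.3% in Gde2KO replicate 2.

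The transcript with the annotated first exon had the opposite order. Its level was 6.01, 5.01 and 5.98 FPKM in WT and 6.73, 6.38 and 8.33 FPKM in Gde2KO, so that every Gde2KO library was above every WT library. Over exon 1 alone the means were 5.55 ± 0.656 and 7.09 ± 1.01 FPKM, and over exon 3, which both transcripts share, 7.85 ± 0.519 and 7.58 ± 0.750 FPKM (SD, n = 3 each), with overlapping groups. The difference was not tested, since a transcript not assembled in a library is no measured 0 and the exon levels follow from which transcripts were assembled. The split was noticed in the values, and no count of such splits over all genes was made. Gde2KO replicates 1 and 3, which lacked the exon, are among the libraries that stood apart above. Replicate 1 did so by its markers and sex-linked genes and replicate 3 by its annotated chains. WT replicate 1, which held the exon, stood apart by its markers.

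**Figure D4:**
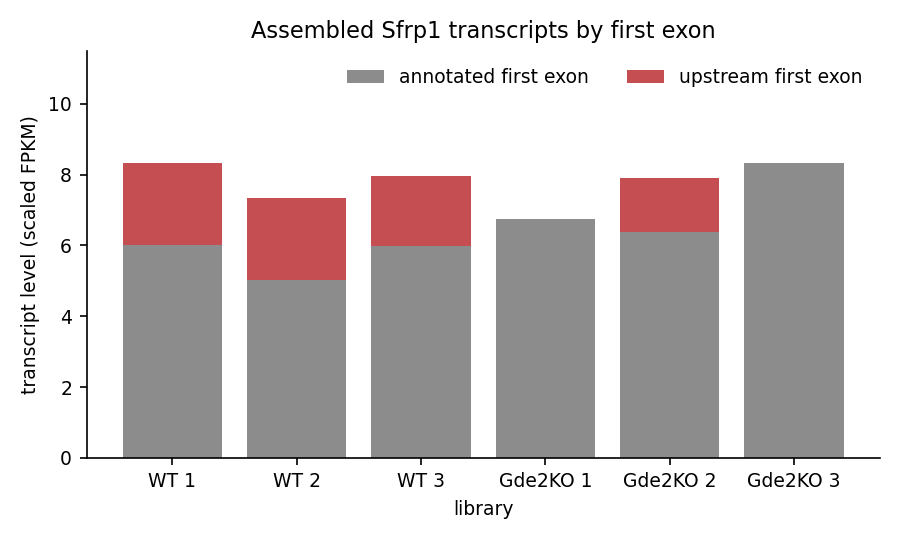
Level of the Sfrp1 transcripts that start at the annotated first exon and at the unannotated upstream exon, in scaled FPKM, stacked in a bar per library. The upstream exon was assembled in all 3 WT libraries (1.999 to 2.32 FPKM) and in Gde2KO replicate 2 (1.53 FPKM).

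Ryk was assembled whole in WT replicate 3 and Gde2KO replicates 2 and 3, and in pieces elsewhere. WT replicate 3 and Gde2KO replicate 2 held Ryk-201 alone, at 10.3 and 10.5 FPKM as deposited. Gde2KO replicate 3 held Ryk-201 at 4.60 FPKM (deposited bounds 4.17 to 5.03) and Ryk-203, with the 9 extra bases, at 4.59 FPKM (4.15 to 5.02). In WT replicates 1 and 2 and Gde2KO replicate 1 the assembly broke after exon 7, and the next piece began 4, 4 and 7 bases after the earlier of the alternative splice sites, within the 9 bases. These pieces thus held some of the bases that Ryk-201 lacks. None of them was joined to exon 7, so whether Ryk-203 was made in those 3 libraries was not settled. In Gde2KO replicate 1 one piece of 2 exons and 200 bases was given 24.1 FPKM, above the 10.4 and 11.1 FPKM of the pieces around it.

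Further assembly differences were single events. Lrp6 was broken in WT replicate 2 into a piece of 14 exons at 7.90 FPKM and one of 9 exons at 6.16 FPKM, which is the library with the highest Lrp6 level. Short pieces of 1 exon, 282 to 383 bases long, overlapped Lrp6 in WT replicates 1 and 3 and Gde2KO replicate 1. A plain sum, which adds these and both pieces of WT replicate 2, gave a log2 difference of -0.53. Lrp5 lacked its first exon, with 88 of its 4842 coding bases, in Gde2KO replicate 1. Frzb had a second transcript in Gde2KO replicate 3 with an unannotated intron of 616 bases (chr2:80447123-80447738) that removes 0 coding bases, at 1.81 FPKM against 1.44 FPKM for the annotated chain. Frzb also ended 447 bases short in Gde2KO replicate 2, where 85.2% of its counted bases were assembled.

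Dkk3 had 1 transcript with the annotated chain in every library. Its 3' end lay 718 to 747 bases beyond the annotated end in 5 libraries and 70 bases short of it in WT replicate 2, the library with the highest Dkk3 level, where the transcript was 3389 bases long against 4187 to 4434 in the others. Ror2 in Gde2KO replicate 3 had a second transcript at 0.431 FPKM (deposited bounds 0.306 to 0.556) beside the annotated chain at 1.02 FPKM. It began with 35 bases at chr13:53275491-53275525 and a junction that the annotation holds. Ror1, the gene of lowest level, was in 1 to 4 pieces per library and 15 in all. Its exon 2 was assembled in Gde2KO replicate 3 alone and its exon 1 in that library and in WT replicate 1, and 77.1% of its counted bases were assembled in Gde2KO replicate 1. No assembled transcript on the opposite strand overlapped the exons of any of the 10 genes. Transcripts without a strand were not part of that search.

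RefSeq promoter windows of 300 bases on GRCm38.p6 (250 before and 50 after the gene's start) were at hand for 5 of the 10 genes, Sfrp5, Frzb, Ryk, Ror1 and Ror2. The TCF/LEF motif CTTTGAT, searched on both strands (ATCAAAG on the other), was in 0 of these 5 windows and in 1225 of 32851 promoter windows (3.73%). That says only that these letters were not in these windows.

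Other Wnt genes gave the surroundings of these 10. The lists held 122 further genes, of which 91 were tested, 33 higher and 58 lower in Gde2KO, with a median log2 difference of -0.06 and 0 past the limma adjusted threshold. An unadjusted p under 0.05 was reached by 7 of them, and groups did not overlap for 13 lower and 2 higher genes. Over all genes tested, 49.9% were lower and 3.89% had an unadjusted limma p under 0.05. Groups did not overlap for 5.77% of all genes on the lower side and 5.07% on the higher side. Among the other secreted antagonists 3 of 14 could be tested, 0 higher and 3 lower, and by plain sum 2 of 4 were higher. Notum, an enzyme that strips the lipid from Wnts, was at 1.19 ± 0.241 FPKM in WT and 0.884 ± 0.288 FPKM in Gde2KO, and Igfbp4, a binding protein of insulin-like growth factors that also antagonises Wnt, at 17.9 ± 5.19 and 14.9 ± 4.87 FPKM (SD, n = 3 each). Sfrp2 was at 2.48 ± 0.375 and 2.31 ± 0.246 FPKM. Sfrp4 was under the minimum, at 1.39, 0.819 and 0.913 FPKM in WT and 0.372, 0.729 and 0.757 FPKM in Gde2KO, without overlap. Kremen2, the relative of Kremen1, was at 0.479 ± 0.166 and 0.535 ± 0.119 FPKM and not tested. Dkk1 and Wif1 had fewer than 200 counted bases and no level.

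Of other coreceptors and surface regulators 17 of 21 were tested, 9 higher and 8 lower, with a median of 0.00, and without scaling 6 were higher and 11 lower. Bambi, a decoy receptor of the BMP pathway and a Wnt target, was at 3.66 ± 0.362 FPKM in WT and 2.92 ± 0.0787 FPKM in Gde2KO, without overlap (limma adjusted p = 0.883). Lgr4, a receptor of R-spondins, was at 3.68 ± 0.235 and 4.18 ± 0.332 FPKM, also without overlap. Lrp4 was at 6.15 ± 0.414 and 6.20 ± 0.817 FPKM, and Ptk7, a further kinase-like Wnt receptor, at 1.73 ± 0.233 and 1.42 ± 0.131 FPKM. Of the Wnt ligands and secretion factors 8 of 21 were tested, 2 higher and 6 lower (4 and 4 without Gde2KO replicate 1). Wnt5a, the ligand of Ror1, Ror2 and Ryk, was at 2.22 ± 0.169 and 1.95 ± 0.1202 FPKM, without overlap, and Wnt4 at 1.59 ± 0.229 and 1.20 ± 0.461 FPKM. Of the Frizzled receptors 9 of 10 were tested, 5 higher and 4 lower (4 and 5 without scaling). Fzd10 was at 1.51 ± 0.168 and 1.06 ± 0.226 FPKM and Fzd6 at 2.01 ± 0.0630 and 1.72 ± 0.196 FPKM, both without overlap.

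Inside the cell, 26 of 26 genes of the beta-catenin pathway were tested, 8 higher and 18 lower, or 5 and 21 without scaling. Their median log2 difference of -0.07 was -0.011 (11 higher, 15 lower) without Gde2KO replicate 3 and -0.11 without WT replicate 1. Btrc, the F-box protein that hands phosphorylated beta-catenin to the ubiquitin system, had the smallest unadjusted p of these lists. It was at 19.0, 19.2 and 19.3 FPKM in WT against 14.6, 14.7 and 15.0 FPKM in Gde2KO, a log2 difference of -0.38 (95% interval -0.50 to -0.25; limma adjusted p = 0.184). Ctnnb1, the gene of beta-catenin, was at 103 ± 3.91 and 111 ± 5.35 FPKM, and Bcl9, a coactivator, at 5.15 ± 0.167 and 3.82 ± 0.721 FPKM (SD, n = 3 each), both without overlap. Of the Wnt target genes 14 of 17 were tested, 4 higher and 10 lower, with a median of -0.20, which was -0.12 without Gde2KO replicate 3, -0.085 over the 6 with a mean of at least 5 FPKM and -0.049 by plain sum (6 higher, 9 lower). Axin2 was at 2.35 ± 0.338 and 1.90 ± 0.276 FPKM with overlapping groups, and Tnfrsf19 at 12.02 ± 0.409 and 10.8 ± 0.426 FPKM without overlap. Of the planar polarity and noncanonical genes 20 of 21 were tested, 7 higher and 13 lower (10 and 10 without Gde2KO replicate 3). Camk2b was at 59.8 ± 2.02 and 53.9 ± 2.52 FPKM, without overlap, and Nfatc1 at 1.89 ± 0.221 and 1.48 ± 0.279 FPKM, with overlapping groups.

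**Figure D5:**
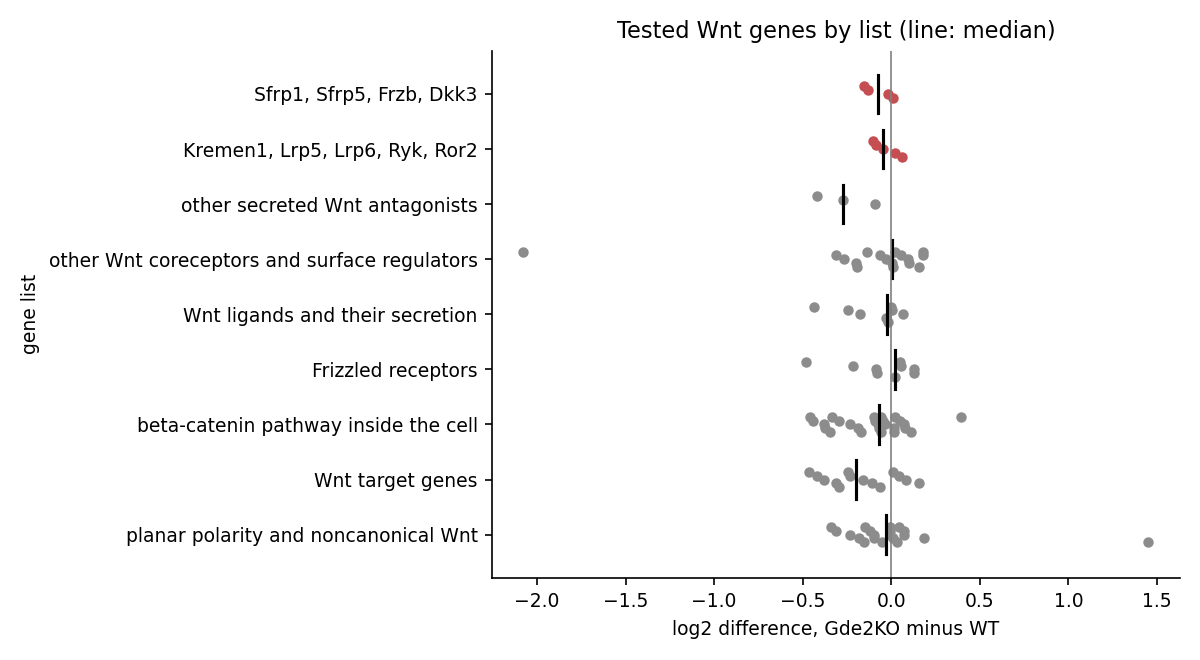
Log2 difference (Gde2KO minus WT) of every tested gene in the Wnt lists, a point per gene, with the median of each list marked. The 26 genes of the beta-catenin pathway have a median of -0.07 (-0.011 without Gde2KO replicate 3) and no point passed the limma threshold. The far points are Tmem198 (-2.08), at 0 in 3 libraries across both genotypes, and Prickle3 (1.45).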

How the data were processed

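Poly-A RNA was sequenced in 6 libraries, with WT and Gde2KO groups taken from the genotype label. Per the submitters' processing notes, the tools were FastQC, TopHat2 2.1.1, Cufflinks 2.2.1 and Cuffdiff 2.2.1 on mm10. The deposited files are per-library Cufflinks assemblies with FPKM values and bounds made by the authors. They name no reference genes and hold no counts. The labels do not say that each library is a separate animal, so p-values measure only the spread between these libraries, which may in part be technical. By Ddx3y and Xist, as given above, Gde2KO replicate 1 had a male pattern and the other libraries a female one. By these genes sex was not balanced between the genotypes, and it was not in the fit.

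Transcripts of at least 200 exonic bases were matched to GENCODE vM21 by exon overlap, on the same strand or without a strand. Between 13.1% and 14.1% had no strand, and 11.7% to 13.0% matched no gene. Transcripts without a strand counted towards a level except at bases in exons of a gene on the other strand. The level of a gene was its FPKM summed at each counted base (assembled in at least 3 libraries, in no other gene) and averaged, since a sum over broken pieces would add them. Levels were scaled by median-of-ratios factors. Tested were genes with a mean FPKM of 1 or more and 200 or more counted bases. The test was limma (3.58.1, R 4.3.3) applied to log2(FPKM + 0.1), with trend and robust moderation, two-sided, Benjamini-Hochberg adjusted over all genes, threshold 0.05. The pseudocount understates changes of low genes. The script was tested on simulated data. All 6 libraries share a flow cell and lane in the labels, so no batch could be separated.

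The 10 genes and all lists were chosen with earlier results of these data known. Named genes were the 10, Gdpd5, the 2 of smallest p per Wnt list and a set of Wnt genes given as values. Another 22 settings were tried, among them other levels, filters, pseudocounts, scalings and each library left out.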

Additional observations from a re-analysis of the deposited data

How the results depend on the processing

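Under the 22 other settings 0 of the genes that could be tested among the 10 passed the limma threshold, with a lowest adjusted p of 0.785. Ror1 was tested in 4 of these settings, and with a mean of at least 5 FPKM only 5 of the 10 were tested. Over all genes, 15 were called, and the count was 4 with bases assembled in all 6 libraries, 8 by fragments per gene, 7 by the highest transcript, 1 with a mean of at least 5 FPKM, 4 with a pseudocount of 0.01, 4 with values at 0 as missing, and 10 to 25 when 1 library was left out. Log2 differences of Dkk3 (-0.17 to -0.05), Kremen1 (-0.13 to -0.05), Lrp5 (0.03 to 0.11) and Ror1 (-1.03 to -0.11) kept their sign in all settings that gave a value. Signs turned for Frzb by plain sum (0.0014), for Lrp6 by highest transcript (-0.039), without scaling (-0.015) and by plain sum (-0.53), for Sfrp1 by fragments (-0.017), without scaling (-0.021) and by plain sum (-0.017), and for Sfrp5 by fragments (0.078) and plain sum (0.0045), and the cause was not tested. With 1 library left out, values ran from -0.020 to 0.064 for Lrp6, -0.16 to 0.0059 for Ror2, -0.095 to 0.027 for Ryk, -0.051 to 0.088 for Sfrp1, -0.21 to 0.15 for Sfrp5, -0.27 to -0.069 for Frzb, -0.13 to -0.046 for Kremen1 (nearest 0 without Gde2KO replicate 1) and -0.54 to -0.16 for Ror1 (without Gde2KO replicates 3 and 1).

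Replicate numbers did not pair the libraries: same-numbered deviations from the group means correlated at 0.0102, 0.0349 and -0.0666 across genes. With the replicate number as a block, 2 genes were called, 0 of them among the 10. The files give no depth, so what reads limit is unknown, and the lowest gene, Ror1, was the one most often in pieces.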

Other observations

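By library pattern, the tested gene nearest to each of the 9 genes was found as the smallest root-mean-square difference of log2 levels centred on their mean over the 6 libraries. With 12872 genes and 6 libraries a near match is found for any gene, and nothing was tested. Among Wnt genes the nearest to Dkk3 was Kremen1 (0.07), to Ryk Pygo1 (0.03), to Lrp6 Csnk1g3 (0.04), to Lrp5 Pygo2 (0.05), to Frzb Apcdd1 (0.06), to Kremen1 Wnt7b (0.06), to Sfrp1 Mesd (0.07), to Ror2 Ryk (0.07) and to Sfrp5 Fzd2 (0.18). Over all genes the nearest were Ankrd44 to Dkk3 (0.02), Zfp532 to Ryk (0.02), Tbccd1 to Lrp6 (0.01), Stk4 to Lrp5 (0.02), Gm43672 to Frzb (0.04), Srcin1 to Kremen1 (0.02), Gpaa1 to Sfrp1 (0.02), Zfp318 to Ror2 (0.02) and Magohb to Sfrp5 (0.07).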
